A study of Mus musculus with 6 samples.

Results

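Interferon response and antigen presentation genes were examined in 2 fibroblast populations of the pubertal mouse mammary gland. The 38 genes were taken from a list of symbols, all 38 matched a row of the count table by symbol, and they are 38 of its 27179 genes. Bulk RNA-seq of polyA RNA was carried out on Lin–CD24–Pdgfrα+ fibroblasts, sorted as CD34hi or CD34lo cells from FVB/N mice (FVB/NJ in the methods of the study) at 6 weeks of age. The labels name no transgene and no treatment for any sample. Each of 3 pools of 2 mice gave 1 CD34hi and 1 CD34lo library, so that n = 3 libraries per population and a pool is a pair of libraries from the same animals.

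Interferons are secreted cytokines by which cells warn each other of infection. Type I interferons signal through the receptor chains *Ifnar1* and *Ifnar2*, and the kinases JAK1 and TYK2, to a complex that contains STAT2 and IRF9 and binds the interferon-stimulated response element (ISRE) in promoters. Interferon gamma signals through *Ifngr1* and *Ifngr2* to factors that bind the gamma-activated site (GAS). The induced genes encode RNA sensors, antiviral effectors, large GTPases and the machinery that loads peptides onto MHC class I molecules. Fibroblasts express the receptors and respond to both kinds of interferon, and many of the induced genes also have a basal level in uninfected tissue.

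Promoter sequences were read first, because they show which members carry the letters these factors bind. RefSeq windows on GRCm38.p6, from 250 bases before to 50 bases after the transcription start site, were given for 31 of the 38 genes (36 windows). The ISRE core was searched as GAAANNGAAA and the GAS as TTCNNNGAA, on both strands, with N for any base. ISRE letters were found in 16 of the 31 genes (51.6%), against 3.99% of all genes with a window. GAS letters were found in 9 of 31 (29.0%), against 9.55%. Per window rather than per gene, the ISRE shares were 44.4% and 3.44%. The stretches below lie upstream of the start site and are shown because they hold matches in genes whose values are described later. Capitals mark the ISRE letters, and every stretch runs 5′ to 3′ on the strand of its gene, so that TTTC repeats are matches on the opposite strand. The first 7 belong to genes whose level differed between the pools of mice, and the last 3 to genes that did not pass that test.
Isg15: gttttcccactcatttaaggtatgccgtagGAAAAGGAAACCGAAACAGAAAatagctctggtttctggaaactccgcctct
Oas1a: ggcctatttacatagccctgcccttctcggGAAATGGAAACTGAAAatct
Bst2: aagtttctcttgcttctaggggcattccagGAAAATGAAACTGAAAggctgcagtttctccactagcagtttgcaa
Ifit1: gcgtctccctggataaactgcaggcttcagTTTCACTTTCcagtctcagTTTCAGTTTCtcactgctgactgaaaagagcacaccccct
Ifit3: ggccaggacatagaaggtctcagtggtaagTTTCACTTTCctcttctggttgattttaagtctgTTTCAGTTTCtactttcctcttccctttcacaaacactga
Rsad2: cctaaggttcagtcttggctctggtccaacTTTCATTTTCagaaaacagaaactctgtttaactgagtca
Gbp3: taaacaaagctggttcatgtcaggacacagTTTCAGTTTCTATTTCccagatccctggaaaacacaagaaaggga
Irgm1: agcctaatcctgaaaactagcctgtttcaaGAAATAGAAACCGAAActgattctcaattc
Stat2: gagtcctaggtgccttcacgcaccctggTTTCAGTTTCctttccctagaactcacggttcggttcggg
B2m: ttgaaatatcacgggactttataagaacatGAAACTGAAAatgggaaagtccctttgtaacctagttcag

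On GRCm38 these stretches lie at chr4:156200845-156200926 (*Isg15*, minus strand), chr5:120907526-120907575 (*Oas1a*, minus), chr8:71537557-71537632 (*Bst2*, minus), chr19:34640755-34640843 (*Ifit1*, plus) and chr19:34583343-34583446 (*Ifit3*, plus). The others lie at chr12:26456533-26456602 (*Rsad2*, minus), chr3:142559969-142560043 (*Gbp3*, plus), chr11:48871421-48871480 (*Irgm1*, minus), chr10:128270248-128270315 (*Stat2*, plus) and chr2:122147518-122147587 (*B2m*, plus). The *Isg15* promoter held 3 overlapping matches, which start 78, 72 and 66 bases before the start site. *Oas1a*, *Bst2*, *Gbp3* and *Irgm1* each held 2 overlapping matches, while the 2 matches of *Ifit1* and of *Ifit3* were separate. *Ifit3b*, the neighbouring copy of *Ifit3*, has the same 104 bases with 0 mismatches. ISRE letters were also found in *Gbp2*, *Gbp7* and *Igtp* upstream of the start site, and in *Ifih1* and *Ifitm3* after it. Of the genes with a window, 9 of the 13 that differed between pools and 7 of the 18 that did not held ISRE letters. *Ifit3* and *Ifit3b*, with the same stretch, are both among the 9. GAS letters were found in 3 of the 13 and 6 of the 18. *Oas2*, *Mx1*, *Ifi27l2a* and *Usp18*, which also differed between pools, had no window. A match is a run of letters and was not tested for binding.

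**Figure D1:**
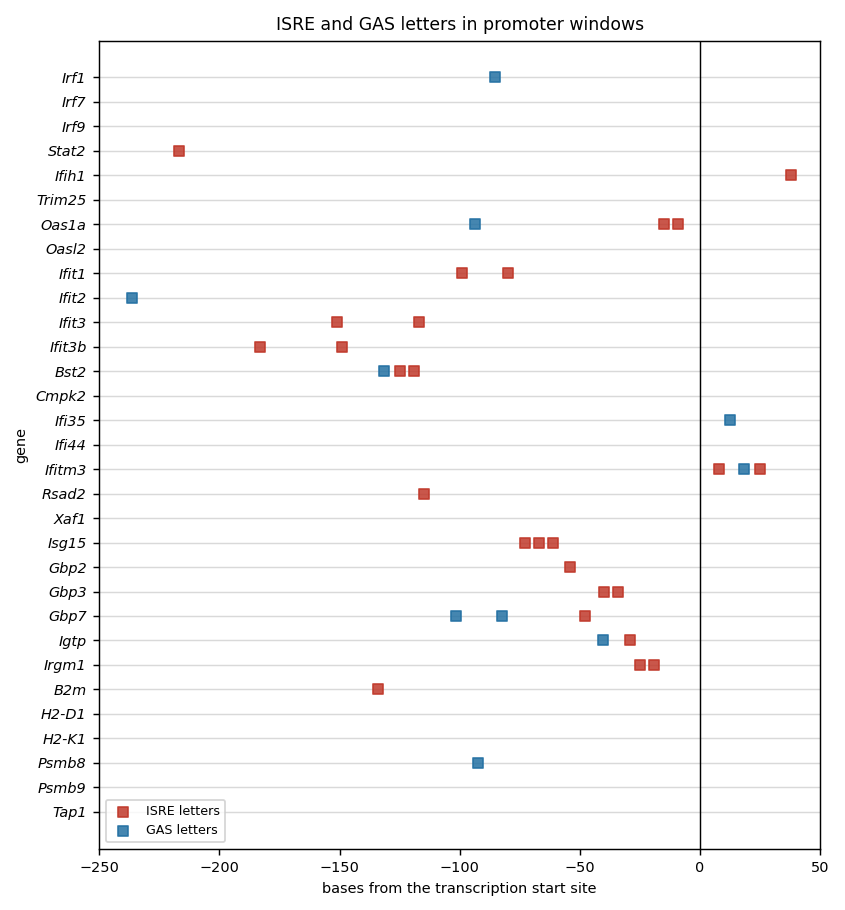
Positions of ISRE letters (red) and GAS letters (blue) in the promoter windows of the 31 members with a window, in bases from the transcription start site (vertical line). Each row is 1 gene, 16 rows carry red squares and 9 carry blue squares. Most red squares lie upstream of the start site.

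The libraries held between 28764779 and 52402410 counts, so that 3 counts, the floor used here, correspond to between 0.0572 and 0.104 CPM (counts scaled to the size of the library). *Cd34*, the sorted marker, was at 2571 ± 75.2 CPM (SD, n = 3) in CD34hi libraries and at 634 ± 158 CPM in CD34lo libraries. Fibroblast markers (*Dcn*, *Lum*, *Pdgfra*, *Col1a2*, *Igfbp5*) summed to between 28386 and 36429 CPM in all libraries. The 10 leukocyte markers summed to between 15.0 and 18.0 CPM in CD34hi and between 4.08 and 8.99 CPM in CD34lo libraries. *Cd3e* gave most of the sum except in CD34lo of pool 3, where *Cd79a* was higher (2.09 against 1.67 CPM). The pan-leukocyte gene *Ptprc* did not exceed 0.360 CPM in any library, and *Siglech*, *Itgax* and *Flt3* were at 0 or near it. The 5 macrophage markers summed to between 2.57 and 3.20 CPM in CD34hi and between 27.3 and 48.6 CPM in CD34lo libraries, and the main part was *Cd68* in CD34hi and *Fcgr2b* in CD34lo. The 2 keratinocyte markers summed to between 14.3 and 19.9 CPM in CD34hi and between 3.60 and 7.12 CPM in CD34lo libraries. The part of these other cell types in the differences below was not tested. In bulk libraries, fewer cells of a type and less RNA per cell cannot be told apart.

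Interferon genes as a group lay higher in CD34hi than in CD34lo fibroblasts. In edgeR's quasi-likelihood test, with p-values adjusted over the 15219 genes tested and a threshold of 0.05, 16 of the 38 members (42.1%) were higher in CD34hi, against 16.9% of all genes tested. Only *Trim25* was higher in CD34lo, where 18.7% of all genes were, and 21 members did not pass the test. The median log2 fold change of the members was 0.74, beside -0.0064 over all genes. Of the 38 values 33 were positive, against 7540 of the 15219 genes tested. The 16 genes called higher in CD34hi were also the 16 in which every CD34hi library lay above every CD34lo library, as did 24.8% of all genes tested.

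The pairing by pool changed this count. With the mouse pool as a block in edgeR, 29 members were higher in CD34hi and 1 in CD34lo, against 19.6% and 20.9% of all genes. The 13 genes gained were *Ifih1*, *Oas2*, *Ifit1*, *Ifit3*, *Mx1*, *Rsad2*, *Ifi44*, *Xaf1*, *Parp14*, *Isg15*, *Gbp3*, *Gbp7* and *Igtp*. Values are given below by role, and the blocked p stands beside those genes whose call it changed.

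**Figure D2:**
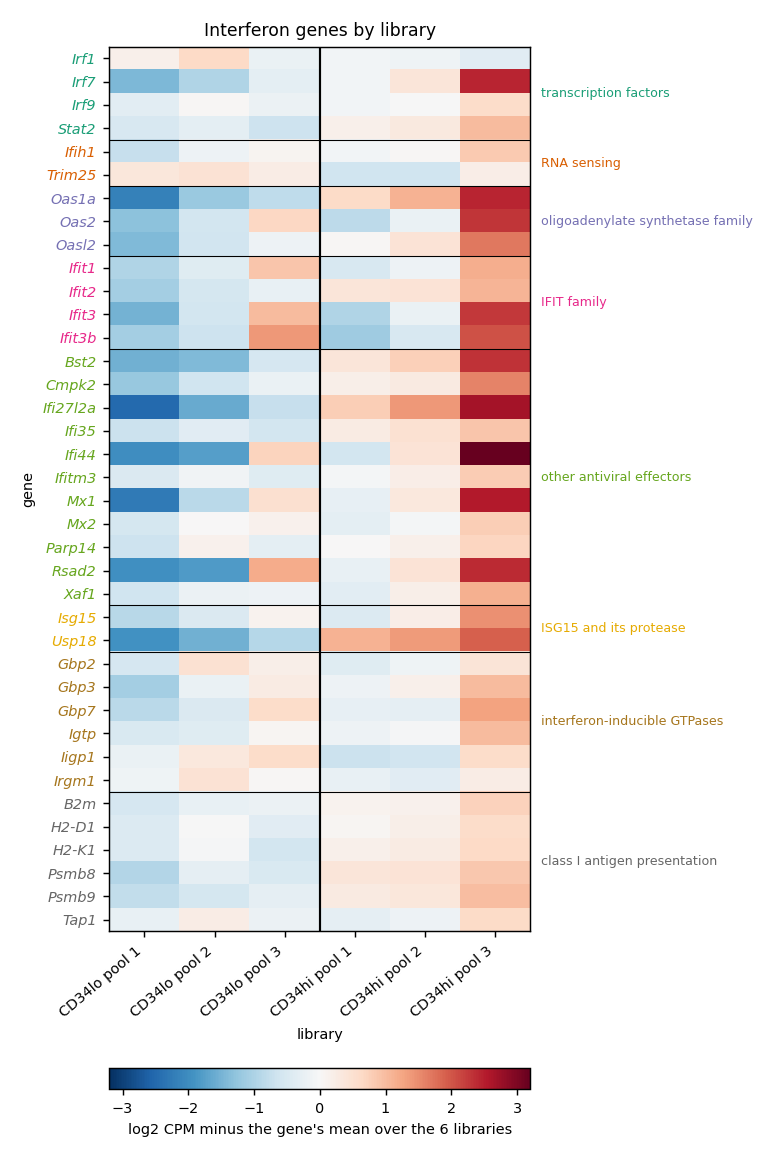
Expression of the 38 genes in the 6 libraries, as log2 CPM (with 0.05 added) minus the mean of the gene, in colours from blue (below its mean) to red (above), with rows grouped by role. The right-hand column, CD34hi of pool 3, is the reddest for most genes, and CD34lo of pool 1 the bluest for many.

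Of the transcription factors, *Irf7* and *Stat2* were higher in CD34hi, while *Irf9* and *Irf1* did not pass the test. *Irf7*, the factor that amplifies type I interferon production and is itself interferon-induced, was at 48.1, 66.5 and 274 CPM in the CD34hi libraries of pools 1, 2 and 3 and at 18.6, 26.1 and 40.8 CPM in the CD34lo libraries. The groups did not overlap, and the pool 3 CD34hi library stood far above the rest. The log2 fold change of *Irf7* was 2.19 ± 0.62 (SE, adjusted p = 0.0239 in edgeR). It fell to 1.02 without CD34hi of pool 3, and the call was lost without pool 2 (adjusted p = 0.0519), CD34lo of pool 1 (0.0835) or CD34lo of pool 2 (0.071). *Stat2*, which forms the ISRE-binding complex with IRF9, was at 92.9, 103 and 167 CPM in CD34hi and at 58.4, 67.1 and 52.9 CPM in CD34lo. This was a log2 fold change of 1.02 ± 0.22 (SE, adjusted p = 0.00644), with no overlap, and of 0.64 without pool 3. *Irf9*, the DNA-binding subunit of that complex, was at 70.4 ± 19.8 and 55.3 ± 7.48 CPM (SD, n = 3), an adjusted p of 0.199.

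*Irf1*, a factor that responds to interferon gamma and to inflammatory stimuli, was the transcription factor with the highest level per length, at a mean of 132 RPKM in CD34hi and 178 RPKM in CD34lo. It was at 480, 457 and 397 CPM in CD34hi and at 568, 784 and 439 CPM in CD34lo. Its log2 fold change of -0.42 ± 0.21 (SE) did not pass the test (adjusted p = 0.147), the groups overlapped, and it was lowest in pool 3 in both populations, unlike most members.

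The members that serve in RNA sensing had differences of opposite sign. *Trim25*, the ubiquitin ligase that assists the sensor RIG-I, was at 59.2, 59.1 and 106 CPM in CD34hi and at 119, 127 and 110 CPM in CD34lo. Its log2 fold change of -0.66 ± 0.22 (SE) only just passed the test (adjusted p = 0.0478), and the pool 3 libraries were nearly level, with a log2 ratio of -0.05 against -1.0 and -1.10 in pools 1 and 2. The call was lost in 7 of 9 fits with a pool or library left out, and without pool 3 the log2 fold change was -1.05 (adjusted p = 0.00192). *Ifih1*, which encodes the RNA sensor MDA5, was at 38.7 ± 14.4 CPM in CD34hi and 26.2 ± 7.18 CPM in CD34lo (SD, n = 3), with an adjusted p of 0.152 and of 0.0105 with the pool as a block.

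The oligoadenylate synthetases, which make the second messenger that activates RNase L, rose in CD34hi for *Oas1a* and *Oasl2*. *Oas1a* was at 18.1, 25.7 and 64.8 CPM in CD34hi and at 2.62, 5.18 and 6.72 CPM in CD34lo. Every CD34hi library lay above every CD34lo library, with a log2 fold change of 2.92 ± 0.52 (SE, adjusted p = 0.0024). Of the *Oas1a* transcript, 47.6% of the 75-base stretches also occur in *Oas1g*, so that counts may be split between these copies. *Oasl2*, the family member with the highest level per length (32.5 RPKM in CD34hi, 11.2 RPKM in CD34lo), was at 56.2, 73.8 and 176 CPM and at 20.4, 35.9 and 49.1 CPM. Here too the groups did not overlap, with a log2 fold change of 1.54 ± 0.45 (SE, adjusted p = 0.0258), which was 0.90 without CD34hi of pool 3, and the call was lost in 4 of 9 fits with a pool or library left out. *Oas2* was at 6.55, 10.2 and 58.3 CPM in CD34hi and at 4.74, 7.80 and 18.7 CPM in CD34lo. The groups of *Oas2* overlapped, since CD34lo of pool 3 exceeded CD34hi of pools 1 and 2, and the adjusted p was 0.25 without and 0.015 with the pool as a block.

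The IFIT proteins bind foreign RNA and hold back its translation, and their 4 genes lie side by side within 99.3 kb of chromosome 19. *Ifit2* alone passed the test, at 26.1, 27.0 and 42.3 CPM in CD34hi and at 9.48, 13.6 and 16.9 CPM in CD34lo, a log2 fold change of 1.26 ± 0.25 (SE, adjusted p = 0.00476). *Ifit1* was at 36.7, 47.2 and 117 CPM in CD34hi and at 26.9, 40.5 and 97.1 CPM in CD34lo. The *Ifit1* groups overlapped, and its log2 fold change was 0.29 ± 0.53 (SE, adjusted p = 0.706, and 0.049 with the block). *Ifit3* was at 13.9, 23.6 and 132 CPM and at 9.54, 18.1 and 55.3 CPM, with an adjusted p of 0.386 and of 0.00633 with the block. *Ifit3b* was at 4.09, 6.35 and 37.1 CPM and at 4.21, 5.68 and 23.6 CPM, and did not pass in either fit (adjusted p = 0.685 and 0.208). In *Ifit1*, *Ifit3* and *Ifit3b* both libraries of pool 3 lay above all 4 libraries of pools 1 and 2. *Ifit3* and *Ifit3b* share 41.1% of the 75-base stretches of the former, and their counts are uncertain to that extent.

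Among the 11 other antiviral effectors, 5 were higher in CD34hi. *Ifi27l2a*, a mitochondrial interferon-induced protein, had the largest difference of all members, at 108, 163 and 398 CPM in CD34hi and at 11.1, 20.5 and 37.1 CPM in CD34lo. Its log2 fold change was 3.29 ± 0.57 (SE, adjusted p = 0.00213), and the ratio was similar in each pool, with log2 values of 3.28, 2.99 and 3.42. *Bst2*, or tetherin, which holds budding virions at the cell surface, was at 88.8, 115 and 338 CPM and at 23.5, 25.4 and 46.8 CPM, a log2 fold change of 2.5 ± 0.51 (SE, adjusted p = 0.00494). *Cmpk2*, a mitochondrial nucleotide kinase, was at 17.2, 18.4 and 44.9 CPM and at 6.49, 9.64 and 12.9 CPM, a log2 fold change of 1.48 ± 0.40 (SE, adjusted p = 0.0183). In each of these genes the lowest CD34hi library lay above the highest CD34lo library, and pool 3 was highest in both populations.

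*Ifi35*, a regulator of innate signalling, was at 24.2, 28.3 and 37.1 CPM in CD34hi and at 12.6, 15.6 and 13.4 CPM in CD34lo, a log2 fold change of 1.11 ± 0.18 (SE, adjusted p = 0.00141). *Ifitm3*, a membrane protein that blocks virus entry and had the highest level per length of these effectors (675 RPKM in CD34hi, 420 RPKM in CD34lo), was at 322, 393 and 597 CPM and at 244, 315 and 257 CPM. The groups of *Ifitm3* were close, with a log2 fold change of 0.69 ± 0.23 (SE, adjusted p = 0.0434). The call was lost in 7 of 9 fits with a pool or library left out, where the log2 fold change lay between 0.36 (without pool 3, adjusted p = 0.182) and 0.90. That of *Cmpk2* lay between 0.89 (without CD34hi of pool 3) and 1.75, and its call was lost in 2 fits.

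The effectors *Ifi44*, *Mx1* and *Rsad2* were scarce and uneven. *Ifi44* was at 0.716, 1.52 and 10.6 CPM in CD34hi and at 0.240, 0.288 and 1.83 CPM in CD34lo, with an adjusted p of 0.106 and of 0.000323 with the block. *Mx1*, a GTPase that traps viral nucleocapsids, was at 1.79, 2.70 and 12.6 CPM and at 0.406, 1.15 and 3.09 CPM, with an adjusted p of 0.113 and of 0.000368 with the block. *Rsad2*, or viperin, which makes a chain-terminating nucleotide, was at 4.14, 6.68 and 26 CPM and at 1.22, 1.37 and 11.2 CPM, with an adjusted p of 0.258 and of 0.000191 with the block. In all 3 genes CD34hi exceeded CD34lo in every pool, while the groups overlapped because pool 3 of CD34lo exceeded pool 1 of CD34hi. *Xaf1*, *Parp14* and *Mx2* had log2 fold changes between 0.33 and 0.79 with adjusted p-values between 0.0971 and 0.411, and with the block *Xaf1* and *Parp14* passed (0.0226 and 0.0259) and *Mx2* did not (0.155).

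*Isg15*, a ubiquitin-like protein joined to other proteins, and *Usp18*, the protease that removes it and restrains the type I receptor, were the next pair. *Usp18* was at 34.7, 41.5 and 60.1 CPM in CD34hi and at 4.11, 5.47 and 8.55 CPM in CD34lo. Its log2 fold change of 2.92 ± 0.30 (SE, adjusted p = 0.000125) was nearly the same in every pool, with log2 ratios of 3.06, 2.91 and 2.81. *Isg15* was at 19.0, 29.7 and 70.3 CPM and at 13.7, 18.4 and 27.6 CPM. Its groups overlapped, and its log2 fold change of 1.00 ± 0.45 (SE) had an adjusted p of 0.118, and of 0.00323 with the block. Per length, *Isg15* was the higher of the pair, at 52.5 against 25.7 RPKM in CD34hi and 26.4 against 3.41 RPKM in CD34lo.

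The interferon-inducible GTPases, which attack the vacuoles of intracellular pathogens, had calls between the populations with the pool as a block, where 3 of 6 were higher in CD34hi. Without the block, of the 6 genes 0 passed in edgeR (0 at an unadjusted p under 0.05), 0 passed in limma-voom and 0 in DESeq2 (0 and 1 unadjusted). *Irgm1*, with the highest level per length of them (96.9 RPKM in CD34hi, 114 RPKM in CD34lo), was at 196, 179 and 272 CPM in CD34hi and at 208, 320 and 237 CPM in CD34lo, a log2 fold change of -0.24 ± 0.21 (SE, adjusted p = 0.405). *Gbp3* was at 25.6, 31.6 and 57.7 CPM and at 13.4, 24.7 and 34.4 CPM, with an adjusted p of 0.2 and of 0.00329 with the block. *Gbp7* was at 23.5, 23.4 and 68.9 CPM and at 15.7, 20.7 and 42.3 CPM, with an adjusted p of 0.405 and of 0.0156 with the block. Both *Gbp3* and *Gbp7* were higher in CD34hi in each pool, yet the groups overlapped. *Igtp* also passed with the block (adjusted p = 0.153 without and 0.0167 with it), whereas *Gbp2* and *Iigp1* had log2 fold changes of -0.09 and -0.38 and passed in neither fit.

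In class I antigen presentation 5 of 6 genes were higher in CD34hi, with or without the block, and *Tap1* was the exception. *B2m*, the light chain of every class I molecule, had the highest level per length of all members (1242 RPKM in CD34hi, 779 RPKM in CD34lo). It was at 893, 913 and 1390 CPM in CD34hi and at 577, 701 and 726 CPM in CD34lo, a log2 fold change of 0.67 ± 0.20 (SE, adjusted p = 0.0289). *H2-K1*, a class I heavy chain, was at 508, 545 and 713 CPM and at 339, 445 and 305 CPM, a log2 fold change of 0.70 ± 0.19 (SE, adjusted p = 0.02). *H2-D1*, another heavy chain, was at 947, 1019 and 1354 CPM and at 659, 885 and 697 CPM, a log2 fold change of 0.57 ± 0.19 (SE, adjusted p = 0.0419). No CD34hi library overlapped with a CD34lo library in these 3 genes. With the pool as a block in edgeR and all 6 libraries, the adjusted p-values were 0.00639 for *B2m*, 0.0114 for *H2-K1* and 0.0216 for *H2-D1*. Without the block, these calls were lost in 7 of 9 fits with a pool or library left out for *B2m*, in 4 for *H2-K1* and in 6 for *H2-D1*. Their lowest log2 fold changes were 0.44 for *B2m* (without CD34hi of pool 3), 0.43 for *H2-K1* and 0.35 for *H2-D1* (both without pool 3), and without pool 1 the adjusted p-values were 0.0842, 0.0651 and 0.117.

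*Psmb8* and *Psmb9*, which encode catalytic subunits of the immunoproteasome, rose by about the same amount. *Psmb8* was at 37.2, 38.4 and 51.8 CPM and at 14.9, 23.4 and 20.1 CPM, a log2 fold change of 1.13 ± 0.20 (SE, adjusted p = 0.00226). *Psmb9* was at 9.64, 10.2 and 15.5 CPM and at 4.50, 5.32 and 6.46 CPM, a log2 fold change of 1.12 ± 0.23 (SE, adjusted p = 0.0052). Their neighbour *Tap1*, a subunit of the peptide transporter, was at 45.2 ± 16.2 and 40.9 ± 7.74 CPM (SD, n = 3), a log2 fold change of 0.15 ± 0.24 (SE, adjusted p = 0.677). *B2m* overlaps *Patl2* on the opposite strand, but *Patl2* had 159 counts over the 6 libraries against 209409 for *B2m*. *Psmb8*, *Psmb9* and *Tap1* lie with *H2-K1* and *H2-D1* within 1271 kb of chromosome 17.

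**Figure D3:**
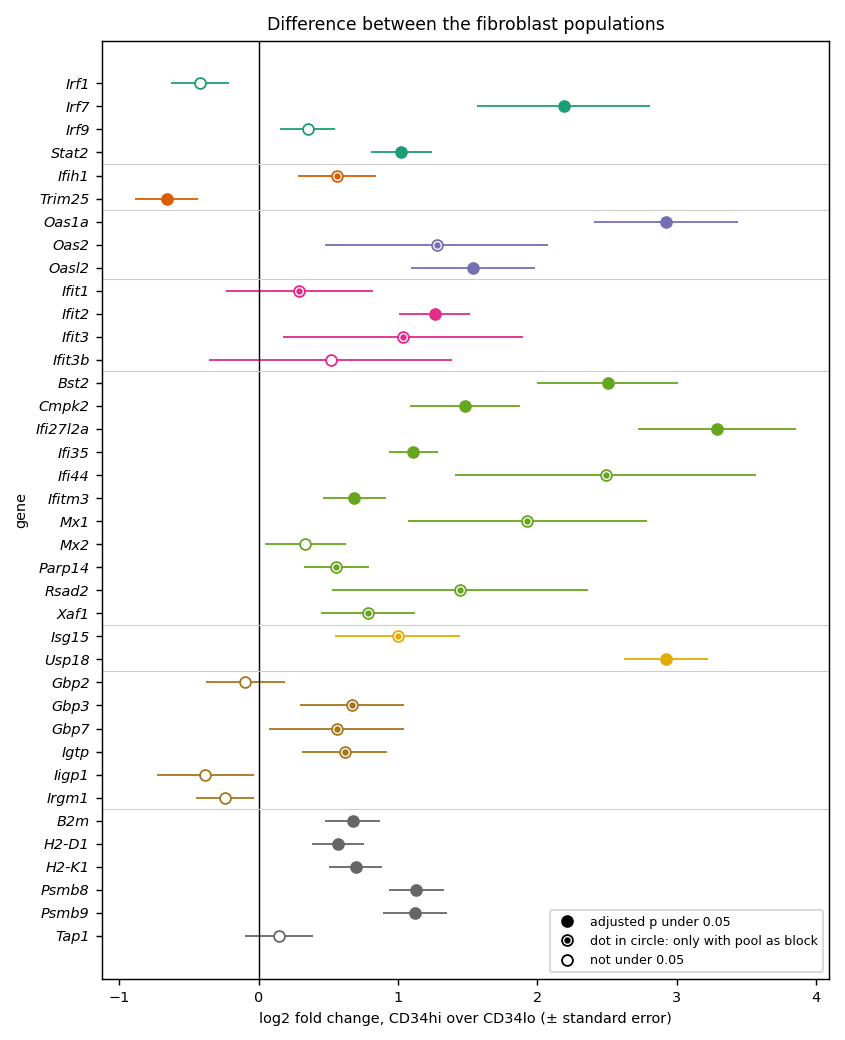
Log2 fold change of CD34hi over CD34lo for each of the 38 genes, with the standard error as the bar. Filled circles mark the 17 genes with an adjusted p under 0.05 in edgeR, dotted circles the 13 that pass only with the pool as a block, and all but 5 points lie right of the line at 0.

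The differences that were least sensitive to the choice of libraries and methods were those of *Bst2*, *Ifi27l2a*, *Ifi35*, *Ifit2*, *Oas1a*, *Psmb8*, *Psmb9*, *Stat2* and *Usp18*. These 9 of the 17 called members passed under each of the 17 alternatives run, which include the removal of any 1 pool or library in the fit without the block. That fit counts differences between pools as spread, so genes with large pool differences pass it less readily. Without the CD34lo library of pool 1 the count of called members was 9, the lowest of the alternatives.

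Spread between the pools was the other main feature of these genes. The SD of log2 CPM over the 3 CD34hi libraries had a median of 0.59 over the members, beside 0.19 over all genes, and in CD34lo libraries the medians were 0.42 and 0.23. A test of both pool terms in edgeR, with the population in the model, called 17 of the 38 members (44.7%), against 0.999% of all genes tested (152 genes). The 17 members were *Irf7*, *Oas1a*, *Oas2*, *Oasl2*, *Ifit1*, *Ifit3*, *Ifit3b*, *Mx1*, *Bst2*, *Rsad2*, *Cmpk2*, *Ifi27l2a*, *Ifi44*, *Isg15*, *Usp18*, *Gbp3* and *Gbp7*. All 17 were highest in pool 3 in both populations. The smallest adjusted p-values were 0.00106 for *Ifit3* and *Ifit3b*, 0.00174 for *Ifit1* and 0.0023 for *Rsad2*, and the largest was 0.0496 for *Usp18*.

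By role, the pool test called 3 of 3 oligoadenylate synthetases, 3 of 4 IFIT genes, 2 of 2 of the ISG15 pair and 6 of 11 other effectors. It also called 2 of 6 GTPases and 1 of 4 transcription factors. None of the 6 class I genes passed in edgeR (1 at an unadjusted p under 0.05), in limma-voom (2 unadjusted) or in DESeq2 (2 unadjusted). Of the 17 genes, 7 were also called between the populations without the block, and 10 were not, namely *Oas2*, *Ifit1*, *Ifit3*, *Ifit3b*, *Mx1*, *Rsad2*, *Ifi44*, *Isg15*, *Gbp3* and *Gbp7*. In each of these 10 the CD34hi and CD34lo libraries overlapped.

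Pool 3 was the highest of the 3 pools in CD34hi for 37 of 38 members, with *Irf1* as the exception, and in CD34lo for 25. Over the 15219 genes tested, pool 3 was highest for 6314 in CD34hi and for 4972 in CD34lo. It was highest in both populations for 25 members (65.8%), beside 17.0% of all genes. The log2 CPM of pool 3 exceeded the mean of pools 1 and 2 by a median of 1.00 over the members in CD34hi and 0.54 in CD34lo, beside 0.0076 and 0.0072 over all genes. *Ifi44* exceeded it by 3.28 in CD34hi and 2.59 in CD34lo, *Ifit3* by 2.86 and 2.07, and *Rsad2* by 2.30 and 3.06. *Stat2* exceeded it by 0.77 in CD34hi and was at -0.24 in CD34lo, and *Tap1* was at 0.83 and -0.19. Pool 3 lay above the mean of the other pools in CD34hi for 37 members and in CD34lo for 27, against 7733 and 7747 of the genes tested. Pools 1 and 2 differed as well. The log2 CPM of pool 2 exceeded that of pool 1 by a median of 0.23 over the members in CD34hi and 0.47 in CD34lo. Over all genes these medians were 0.0004 and 0.0099. In CD34lo the step from pool 1 to pool 2 was thus near the excess of pool 3 (0.54).

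The excess of pool 3 was larger in CD34hi than in CD34lo for 35 of 38 members, against 7559 of the 15219 genes tested. Accordingly, the log2 ratio of CD34hi to CD34lo was largest in pool 3 for 33 members, against 5255 of the genes tested. Its medians over the members were 0.61, 0.38 and 1.22 in pools 1, 2 and 3. The ratio was above 0 in all 3 pools for 29 members, against 4973 of the genes tested. Whether the population difference itself varies with the pool could not be tested, because each pool gave 1 library per population.

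**Figure D4:**
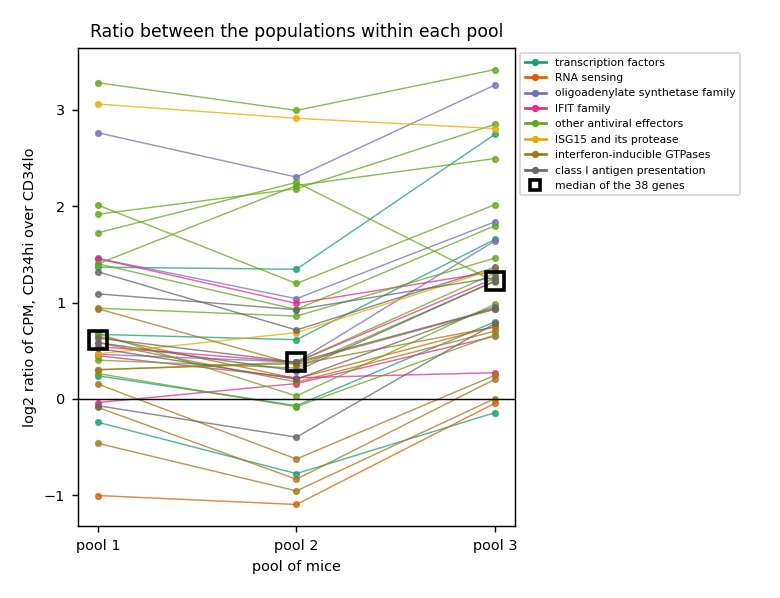
Log2 ratio of CPM, CD34hi over CD34lo, within each pool for the 38 genes. Each line joins the values of 1 gene, coloured by role, and open black squares are the medians (0.61, 0.38 and 1.22), the highest in pool 3.

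The calls of members in the pool test rested on pool 3. With its pair of libraries left out, 0 members passed in edgeR (16 of 38 at an unadjusted p under 0.05), and 27 genes passed in all. With only its CD34hi library left out, 1 member passed, *Ifit3*, and 12 genes in all. With only its CD34lo library left out, 15 members passed. Between populations, 16 members were called without pool 3, of which 14 were higher in CD34hi and 2 in CD34lo (*Trim25* and *Iigp1*), and 13 were among the 17 called with it. The calls lost were those of *B2m*, *H2-K1*, *H2-D1* and *Ifitm3*. Over all genes, 4817 were called between populations without pool 3 and 5411 with it, both directions together. The median log2 fold change of the members was 0.44 without pool 3 and 0.32 without its CD34hi library. None of the 32 marker genes of fibroblasts and other cell types that could be tested passed the pool test in edgeR (8 at an unadjusted p under 0.05), 0 passed in limma-voom and 1 in DESeq2. The summed leukocyte markers in pool 3 were 15.0 CPM in CD34hi and 4.08 CPM in CD34lo, the lowest of the 3 pools in each population. The 4 endothelial markers summed to 30.9, 34.8 and 53.6 CPM in CD34lo of pools 1, 2 and 3, and to 8.65, 25.9 and 18.0 CPM in CD34hi, and the 5 macrophage markers to 48.6, 27.3 and 45.6 CPM in CD34lo and 3.04, 2.57 and 3.20 CPM in CD34hi. Of these, *C1qa* and *Fcgr1* were highest in pool 3 in both populations, at no more than 1.61 CPM. The other macrophage markers were not. *Fcgr2b* was highest in pool 1 in both populations, and *Cd163* was highest in pool 3 in neither. *Cd68* was highest in pool 3 in CD34hi and lowest there in CD34lo (4.04, 3.38 and 2.54 CPM in pools 1, 2 and 3). *Mpeg1*, a macrophage gene named after its values were seen, passed the pool test (adjusted p = 0.038 in edgeR), at 0.447, 0.883 and 5.98 CPM in CD34hi and at 1.73, 1.19 and 5.24 CPM in CD34lo. The part of these cell types in the pool differences was not tested. Labels give no date or batch besides the pool, so the mice of a pool and any handling they shared cannot be told apart.

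**Figure D5:**
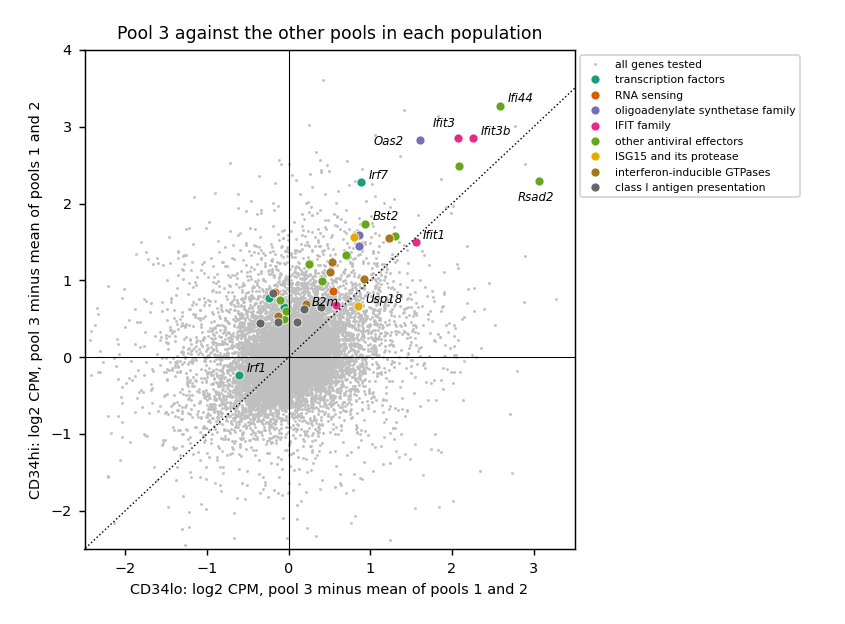
Log2 CPM of pool 3 minus the mean of pools 1 and 2, in CD34lo (horizontal axis) and CD34hi (vertical axis). Grey dots are the genes tested that lie within the axes, coloured points the 38 members, and the dotted line marks equal excess. Members lie mostly above the dotted line, with *Ifi44* and *Ifit3* at the upper right.

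A further 97 genes of the interferon and antigen presentation pathways, which are no members, were taken as a list for comparison, and 85 of them could be tested. In edgeR 39 (45.9%) were higher in CD34hi and 3 higher in CD34lo, against 16.9% and 18.7% of all genes, and their median log2 fold change was 0.56. With the block these were 49 and 6, and the 3 added in CD34lo were *Ifi27*, *Tgtp1* and *Tgtp2* (adjusted p = 0.0289, 0.0248 and 0.0174). Between pools 8 of the 85 were called (9.41%), all with pool 3 highest in both populations, and they were *Gbp9*, *Trim30a*, *Zbp1*, *Gbp4*, *Gbp6*, *Gbp8*, *Oas1g* and *Lgals3bp*. Members and listed genes together made up 17 and 8 of the 152 genes that differed between pools.

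Interferon ligands were almost undetected. None of the 10 ligand genes passed the filter on low counts, so none was tested. *Ifnb1* had 2, 9 and 17 counts in the CD34hi libraries of pools 1, 2 and 3 and 0 in each CD34lo library, and *Ifng* had 4, 3 and 4 counts and 0 in each CD34lo library. *Ifna2* and *Ifnl3* had 1 count each in 1 library, and *Ifna1*, *Ifna4*, *Ifna5*, *Ifne*, *Ifnk* and *Ifnl2* had 0 in every library. A count of 0 allows up to 3 counts, or between 0.0572 and 0.104 CPM.

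The receptor chains for type I interferon and interferon gamma did not pass the test between populations. *Ifnar1* was at 72.3, 79.2 and 78.0 CPM in CD34hi and at 79.9, 67.4 and 84.9 CPM in CD34lo, a log2 fold change of -0.02 ± 0.12 (SE, adjusted p = 0.928 in edgeR). *Ifnar2* had a log2 fold change of 0.24 ± 0.13, *Ifngr1* of -0.00 ± 0.12 and *Ifngr2* of -0.39 ± 0.21 (SE). *Ifngr2* stayed short of the threshold in 15 of 17 alternatives and passed, as lower in CD34hi, in the others. Its log2 fold change over the alternatives lay between -0.61 and -0.19. *Il10rb*, a chain shared by the receptors for interferon lambda and interleukin 10, was at 39.3, 39.1 and 43.4 CPM in CD34hi and at 12.8, 14.7 and 15.6 CPM in CD34lo. Its log2 fold change was 1.5 ± 0.12 (SE, adjusted p = 3.85e-05), while its partner *Ifnlr1* had between 1 and 16 counts a library and was not tested. No receptor passed the pool test, in which their adjusted p-values lay between 0.423 and 0.938.

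Among the signal transducers of the list, *Jak1* had a log2 fold change of 0.83 ± 0.20 (SE, adjusted p = 0.0121 in edgeR), and was lowest in pool 3, at 739 CPM in CD34hi and 336 CPM in CD34lo.

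Among the induced genes of the list, the 6 with the largest rise in CD34hi were *Oas3* (log2 fold change 4.57), *Slfn2* (3.39), *Zbp1* (2.95), *Oas1g* (2.90), *Trim30a* (2.43) and *Gbp9* (2.27). *Oas3*, the synthetase of the longest oligoadenylates, was at 0.604, 1.49 and 12.2 CPM in CD34hi and between 0.148 and 0.257 CPM in CD34lo. Its log2 fold change was 2.36 without CD34hi of pool 3, and the call was lost in limma-voom (adjusted p = 0.132), without CD34lo of pool 1 (0.0621) and without CD34lo of pool 3 (0.0519). *Zbp1*, a sensor of left-handed nucleic acid, was at 33.9, 45.8 and 100.1 CPM in CD34hi and between 4.67 and 11.1 CPM in CD34lo. The 3 genes higher in CD34lo were *Ifitm1*, with a log2 fold change of -3.34, *Irf8* with -1.18 and *Tmem173* with -0.40. The calls of *Irf8* and *Tmem173* were lost in 6 and 7 of 9 fits with a pool or library left out. *Ifitm1* was at 1.92, 2.87 and 3.75 CPM in CD34hi and at 24.6, 31.3 and 30.8 CPM in CD34lo, opposite to its relative *Ifitm3*, a member.

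The list also held further antigen presentation genes. Of 16 further class I genes 10 (62.5%) were higher in CD34hi and 0 in CD34lo in edgeR, against 16.9% and 18.7% of all genes tested. Of 7 class II genes 0 passed in edgeR, limma-voom and DESeq2, with 1 at an unadjusted p under 0.05 in each. The same shares of all genes stand beside this count, which rests on only 7 genes. Class II levels were low, and *Cd74*, the class II invariant chain, lay between 0.432 and 1.59 CPM, while *H2-Aa* lay between 0.252 and 0.793 CPM.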

How the data were processed

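FACS-sorted fibroblasts were profiled by RNA-seq in 6 libraries. Per the labels, TruSeq RNA v2 libraries, a kit that does not mark strand, were sequenced on a NextSeq 500. The authors aligned reads to GRCm38/mm10 and counted them per gene with Rsubread. The deposited values are whole-number counts, with no normalization or filter, and 0 columns were left out. The annotation and the handling of reads with several matches are not given in the sources used here. The reference genome is that of C57BL/6J and the mice were FVB/N (FVB/NJ), and what this does to counts of the variable class I genes was not tested.

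Symbols came from a RefSeq gene table, in which 25275 of 27179 genes had one. The counts were analyzed in R 4.3.3 with edgeR 4.0.16, using filterByExpr by population (15219 genes kept, all 38 members among them), TMM factors (0.967 to 1.04) and the quasi-likelihood test. Benjamini-Hochberg adjustment ran over all genes tested, with a threshold of 0.05. The main fit had the population alone, since the study's methods name no pool covariate. The pool test was the F-test of both pool terms in a model of pool and population. The SE of a log2 fold change was its size over the root of the F statistic, log2 CPM used a prior count of 2, and RPKM used the gene lengths of the deposited table. CPM counting error is small at these depths except near the floor of 3 counts. In the main fit, p-values are set against the spread among the 3 libraries of each population, which includes differences between pools. In the blocked fit and the pool test, they are set against the spread left after the pool and population terms. Libraries of a group differed beyond sampling noise (chi-square per degree of freedom at least 23.9). Each number marks a shared pool of mice, so same-numbered libraries are paired, and the correlations of their deviations from the group means were 0.279, 0.0844 and 0.243. The coefficient of variation was 19.7%, and 14.9% with the pool as a block. The scripts were tested on simulated counts.

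Alternatives were limma-voom (limma 3.58.1), DESeq2 1.42.0, RLE and upper-quartile scaling, no filter, at least 10 counts in every library, the pool as a block, and each pool and library left out. The population fits with a pool or library left out had no block. Shared stretches were runs of 75 bases in GENCODE M21 transcripts. The members, the pathway list and the marker lists were chosen with earlier results of these data known. Every member is named. Values in every library are given for members that passed either test and for the member with the highest RPKM of each role, and of the pathway list the ligands, the receptors and up to 6 genes per direction with the largest differences are named. *Jak1*, *Cd74*, *H2-Aa* and the 8 listed genes called between pools were added after their values were seen, as were *Mpeg1* and the 3 listed genes higher in CD34lo only with the block. Some items are not reported here.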

Additional observations from a re-analysis of the deposited data

How the results depend on the processing

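The number of members called between populations (17) was between 15 and 18 with limma-voom, DESeq2, RLE or upper-quartile scaling, no filter, or at least 10 counts in every library. With the replicate block, which pairs libraries of the same mice, it was 30 in edgeR (29 higher in CD34hi) and 31 in limma-voom (29 higher in CD34hi and 2 in CD34lo), and the 17 kept their call in both. Without the block, leaving out 1 pool or library gave 9 to 19 members, 9 to 19 of them higher in CD34hi and 0 to 2 higher in CD34lo, with 9 without CD34lo replicate 1. *Trim25*, the 1 gene higher in CD34lo, was not called with RLE scaling (0 genes). The listed pathway genes called (42) were 27 to 43, and the calls over all genes (5411) were 3468 to 5236, when 1 pool or library was left out. Between pools, the count over all genes (152) was 273 with limma-voom, 511 with DESeq2, 514 without a filter and 12 to 922 with a pool or library left out. The count of members (17) was 14 to 24 with other methods and 0 to 25 with a pool or library left out, where both 0 and 1 come from leaving out pool 3 or its CD34hi library. For single members, 550 of 645 comparisons between populations kept direction and side of the threshold, 43 lost the call, 39 gained it and 13 changed sign, none of the last in a called gene.

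Members whose sign changed had the following ranges of the log2 fold change with 1 pool or library left out. *Oas2* lay between -0.30 and 2.02, *Ifit1* between -0.38 and 1.0, *Ifit3* between -0.55 and 2.04, *Ifit3b* between -1.09 and 1.69, *Mx2* between -0.065 and 0.57, and *Gbp7* between -0.15 and 1.09. In these 6 genes the lowest value was that without CD34hi replicate 3. *Gbp2* lay between -0.36 and 0.21, *Irgm1* between -0.49 and 0.076, and *Tap1* between -0.25 (without pool 3) and 0.43. The receptors *Ifnar1* and *Ifngr1*, near 0 throughout, lay between -0.13 and 0.070 and between -0.13 and 0.14, and at 0.010 and 0.024 without a filter. None of the values that changed sign passed the threshold. The cause of these changes was not tested. With 3 pools, 1 library of each population in a pool and no second library of the same cells, the spread within a pool is not known.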

Other observations

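Of the 152 genes that differed between pools in edgeR, 127 were neither members nor on the pathway list. Of these, 58 were lowest in pool 3 in both populations and 32 were highest there, while the 17 members and 8 listed genes were all highest there. Pool 2 was highest in both populations for 26 of the 127, which can overlap with the 58. The 127 genes were not searched for further interferon genes. The following were named after their values were seen. *Gbp10*, of the same family as the members *Gbp3* and *Gbp7*, was highest in pool 3 in both populations (adjusted p = 0.0264 in edgeR). It was at 29.4, 32.6 and 103 CPM in CD34hi and at 18.5, 28.4 and 42.1 CPM in CD34lo. The chemokine gene *Cxcl1* was at 2047, 1875 and 647 CPM in the CD34hi libraries of pools 1, 2 and 3 and at 1317, 1775 and 586 CPM in the CD34lo libraries (adjusted p = 0.0162 in edgeR). *Ccl2*, which attracts monocytes, was at 473, 481 and 157 CPM and at 177, 231 and 66.2 CPM (adjusted p = 0.00489). The cytokine gene *Il6* was at 371, 311 and 162 CPM and at 291, 369 and 139 CPM (adjusted p = 0.0276). *Nfkb1*, a subunit of NF-κB, was at 333, 285 and 136 CPM and at 275, 225 and 95.2 CPM (adjusted p = 0.00845), and *Tnfaip3*, an inhibitor of that pathway, at 226, 317 and 117 CPM and at 195, 400.4 and 106 CPM (adjusted p = 0.00856). Each of the 5 genes *Cxcl1*, *Ccl2*, *Il6*, *Nfkb1* and *Tnfaip3* was lowest in pool 3 in both populations. So was the member *Irf1*, which did not pass the pool test (adjusted p = 0.423 in edgeR). The chemokine gene *Cxcl13* went the other way, at 38.9, 49.1 and 176 CPM in CD34hi and at 3.98, 9.82 and 14.1 CPM in CD34lo (adjusted p = 0.0185).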
